A study of Caenorhabditis elegans with 8 samples.

Results

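Genes encoding the transcription factors known to control the Caenorhabditis elegans intestine and its yolk protein genes were followed in dissected intestines of fasted and fed adults. They were found by WormBase identifier in the deposited table and make up 10 of its 20392 genes: elt-2, elt-7, elt-4, pha-4, unc-62, ceh-60, pqm-1, mab-3, blmp-1 and lin-29. All animals were wild type of the strain N2(Bristol), with no transgene or mutation. The 4 fasted libraries (starved in the labels) came from adults that were washed free of bacteria and kept for 12 h in liquid M9 buffer on a roller. The 4 fed libraries (non-starved) came from animals washed briefly in the same buffer and then dissected. By the methods, part of the collected adults was dissected at once as fed and the rest were fasted. Whether libraries of the same number share a culture is not stated there. Intestines were pooled, 30 for each condition, so that the spread between libraries is a spread between pools and not between animals. The fast, the hours in liquid and the added age came together in the fasted group and cannot be told apart. In the labels, both groups bear the time 12 h, and a growth text shared by all libraries speaks of larvae on auxin plates. The account of the animals given here follows the methods instead.

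The intestine of the adult hermaphrodite makes yolk. It transcribes the vitellogenin genes vit-1 to vit-6, secretes the lipid-loaded proteins into the body cavity, and the oocytes take them up. GATA factors, which bind the sequence motif they are named for, keep the intestinal programme running: ELT-2 is the main one, ELT-7 shares much of its work and ELT-4 is a short relative with no essential role known. On top of them act factors that set yolk output by sex, age and nutrition. UNC-62 (a MEIS protein) and CEH-60 (a PBX protein) bind DNA together and activate vit genes, PQM-1 is a zinc finger protein that represses yolk genes when the TORC2 and SGK-1 kinases above it are lost, MAB-3 represses yolk genes in males, and BLMP-1 and LIN-29 belong to the developmental timing pathway that opens yolk production at adulthood.

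Total counts were 25310202 to 33846215 in the fasted libraries and 20964161 to 26372847 in the fed ones. Genes with any count numbered 10955 to 13615 in fasted and 8807 to 9124 in fed libraries, without overlap. The part of this difference in the changes given below was not tested. The vitellogenins alone took 66.5% to 67.8% of all counts in fasted and 71.8% to 73.2% in fed libraries. Levels are given as RPM, a gene's counts per 1000000 counted in that library, and a gene was called at an edgeR FDR under 0.01 and a fold change over 1.5. Results depended on the scaling. By total counts, the median tested gene lay 2.34-fold higher in fasted intestines (log2 1.23). With vitellogenins left out of the library size, that median was 0.96 (7297 tested genes). With the trimmed mean of M values (TMM), which centres on typical genes, it was 0.16. The cause of the gap between these scalings was not tested. Of 7379 tested genes, 52.9% were called higher and 9.97% lower in fasted intestines by total counts, against 19.6% higher and 21.5% lower by TMM. The fasted group lay wholly above the fed one for 58.5% of tested genes and wholly below it for 11.1%. No spike-in was used, and a change in the cells of a type cannot be told apart from a change in RNA per cell.

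The tissue label was checked against 8 intestinal markers, which summed to 2885 to 4001 RPM in fasted and 7555 to 8403 RPM in fed libraries. Markers of other tissues were uneven among fasted libraries. The 8 body wall muscle markers summed to 876, 40.5, 14.2 and 1274 RPM in fasted libraries 1 to 4, and to 9.60 to 14.03 RPM in fed ones. The 6 pharynx markers summed to 193, 2.09, 0.833 and 366 RPM in fasted libraries, against 0.201 to 0.531 RPM in fed ones. The 9 germline and oocyte markers summed to 132, 765, 33.7 and 40.03 RPM in fasted libraries and to 2.12 to 11.7 RPM in fed ones. The 8 neuron markers summed to 57.6, 13.3, 12.4 and 67.4 RPM in fasted libraries, against 7.96 to 10.6 RPM in fed ones. The myosin genes myo-3 of body wall muscle and myo-5 of the pharynx were at 0 counts in each fed library. By total counts 3 of 4 tested muscle markers, 1 of 1 tested pharynx marker and 2 of 6 tested germline markers were called higher, beside 52.9% of all tested genes. The calls were 1 of 3 for neuron, 1 of 1 for coelomocyte, 0 of 3 for hypodermis and 0 of 1 for gonad sheath and spermatheca markers. These counts are too small to set against that share. By the marker sums, muscle and pharynx RNA was highest in fasted libraries 1 and 4 and oocyte RNA in fasted library 2, and calls were also counted without fasted libraries 1 and 4, a choice made after seeing the data.

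Of the 10 factor genes, 8 had enough counts to be tested. By total counts 5 were called higher in fasted intestines (elt-2, elt-7, elt-4, pha-4 and ceh-60), 1 lower (blmp-1) and 2 were not called (unc-62 and pqm-1). The median log2 fold change of the 8 was 1.30, against 1.23 over all tested genes, of which 52.9% were called higher and 9.97% lower. The fasted group lay wholly above the fed one for the same 5 genes (58.5% of all tested genes) and wholly below it for blmp-1 (11.1%). By TMM none of the 8 was called higher and 2 were called lower (pqm-1 and blmp-1), with a median of 0.23 beside 0.16. DESeq2 called 1 higher (ceh-60) and 3 lower (unc-62, pqm-1 and blmp-1), beside 1828 higher and 1736 lower of 10056 genes. At an unadjusted p under 0.05 in the TMM fit, 3 were higher and 3 lower. The same 5 higher and 1 lower were counted when fasted libraries 1 and 4 were left out, and in every fit with 1 library left out. The filter on low counts asked for 0.379 RPM in at least 4 libraries. Both elt-4 (at that level in 4 fasted and 1 fed library) and ceh-60 (in 4 fasted and 2 fed) passed through the fasted libraries, and blmp-1 (in 0 fasted and 4 fed) passed through the fed ones. These 3 genes could pass only because 1 group was high, and the counts of calls describe the list without supporting anything about it.

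**Figure D1:**
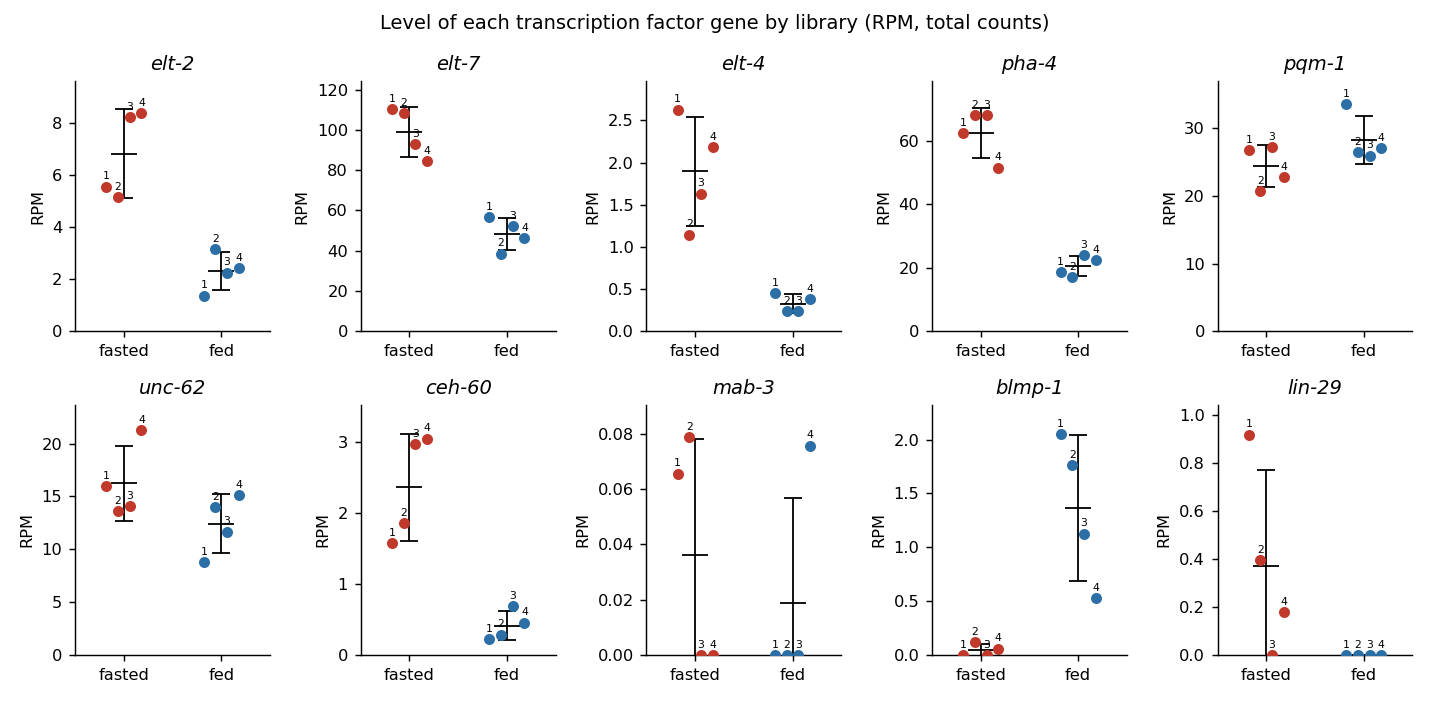
RPM of each of the 10 genes in the fasted (left, red) and fed (right, blue) libraries, with the replicate number over each point and the group mean ± SD (n = 4 each) in black. The axes start at 0 and differ between panels. The groups are apart for elt-2, elt-7, elt-4, pha-4, ceh-60 and blmp-1 and overlap for unc-62, pqm-1, mab-3 and lin-29.

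The main intestinal GATA gene, elt-2 (WBGene00001250), was read at 5.55, 5.14, 8.23 and 8.36 RPM in fasted libraries 1 to 4, against 1.37, 3.15, 2.25 and 2.43 RPM in fed ones. These rest on 130 to 283 counts in fasted and 36 to 66 counts in fed libraries. The lowest fasted library lay above the highest fed one. The mean was 6.82 ± 1.71 RPM in fasted and 2.30 ± 0.733 RPM in fed intestines (SD, n = 4 each), and elt-2 was called higher with a log2 fold change of 1.57 (SE 0.284, edgeR FDR 5.24e-04). Under TMM it was 0.49 and not called. Per exon length its level was far under that of elt-7 in both groups.

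Its paralogue elt-7 (WBGene00015981), which can drive much of the intestinal programme when elt-2 is absent, had 110, 108, 92.9 and 84.3 RPM in fasted libraries and 56.8, 38.5, 52.2 and 46.4 RPM in fed ones. All fasted values exceeded all fed values, and 807 to 3356 counts a library make this the best measured of the GATA genes. The log2 fold change was 1.03 (SE 0.156, edgeR FDR 1.60e-04) by total counts, below the median of all tested genes, and -0.04 (edgeR FDR 0.825) under TMM, where its sign turned.

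The small GATA gene elt-4 (WBGene00001252) had 2.63, 1.15, 1.63 and 2.19 RPM in fasted libraries, against 0.455, 0.239, 0.241 and 0.379 RPM in fed ones. Here 29 to 80 counts a fasted library stand against 5 to 12 counts a fed one. The groups did not overlap, and the log2 fold change of 2.51 (SE 0.404, edgeR FDR 2.43e-04) was the highest among the 8 genes by total counts, just ahead of that of ceh-60. Under TMM it was 1.44 with an edgeR FDR of 0.0105, on the other side of the threshold.

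Set on one scale per exon length, the 3 GATA genes together had 125 ± 13.7 RPKM (RPM per 1000 bases of exon) in fasted and 59.5 ± 9.02 RPKM in fed intestines (SD, n = 4 each). Of this sum elt-7 made up 93.3% ± 1.963 in fasted and 96.3% ± 1.15 in fed intestines. The share of elt-4 was 3.08% ± 1.05 in fasted and 1.11% ± 0.278 in fed intestines, and that of elt-2 was 3.57% ± 1.26 in fasted and 2.60% ± 1.21 in fed ones. The shares of elt-4 did not overlap between groups, which is a description only, since elt-4 passed the filter through the fasted libraries. The shares of elt-2 overlapped. The GATA and endoderm genes that act earlier or in other tissues (end-1, end-3, med-1, med-2, elt-1, elt-3, elt-6 and egl-18) were 8 genes of which 0 passed the filter, and their sum was 0.333 to 1.418 RPM in fasted and 0.0402 to 0.265 RPM in fed libraries.

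The FoxA gene pha-4 (WBGene00004013), best known for specifying the pharynx and also needed in the adult for the long life of diet-restricted animals, had 62.4, 68.1, 68.2 and 51.6 RPM in fasted libraries. In fed libraries it had 18.7, 17.2, 24.1 and 22.3 RPM. The groups lay far apart, and the log2 fold change was 1.60 (SE 0.161, edgeR FDR 8.55e-06), with 0.54 (edgeR FDR 0.0115, not called) under TMM. Since pha-4 is a pharynx gene, the pharynx marker sums are repeated beside it: 193, 2.09, 0.833 and 366 RPM in fasted libraries 1 to 4. Without fasted libraries 1 and 4 the log2 fold change of pha-4 was 1.73. The part of pharynx RNA in the pha-4 values was not tested.

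The MEIS gene unc-62 (WBGene00006796) had 15.96, 13.6, 14.1 and 21.3 RPM in fasted libraries, against 8.80, 14.02, 11.7 and 15.1 RPM in fed ones. The groups overlapped, and it was not called (log2 fold change 0.39, SE 0.215, interval -0.03 to 0.81, edgeR FDR 0.120). Relative to typical genes it sat low: TMM gave -0.70 (edgeR FDR 0.0187, not called), and DESeq2 gave -0.70 and called it lower (FDR 0.00812). The table counts unc-62 over 2899 bases of exon, against 6345 in the later WBcel235 annotation, so reads from the remaining exons are not in these values.

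Its partner gene ceh-60 (WBGene00017690) had 1.58, 1.86, 2.96 and 3.04 RPM in fasted libraries and 0.228, 0.286, 0.684 and 0.455 RPM in fed ones, from 47 to 103 counts a fasted and 6 to 17 counts a fed library. Every fasted value lay above every fed one. The log2 fold change was 2.50 (SE 0.422, edgeR FDR 3.32e-04), and 1.45 with an edgeR FDR of 0.0123 (not called) under TMM. In WBcel235 its exons share 72 bases with the antisense gene ets-4, an ETS factor with 4960 to 6177 counts in fasted and 1062 to 1817 counts in fed libraries (log2 fold change 1.67), and the kit does not mark strand, so that reads from the shared stretch cannot be told apart. Within each library, the log2 ratio of ceh-60 to unc-62 counts averaged -2.81 ± 0.45 in fasted and -4.93 ± 0.62 in fed libraries (SD, n = 4 each), a value that involves no scaling and is given as a description, since ceh-60 passed the filter through the fasted libraries. Of the 3 relatives in the same families, ceh-20 (a PBX gene) and psa-3 (a MEIS gene) were tested and neither was called, at log2 fold changes of -0.20 (edgeR FDR 0.787) and 1.46 (edgeR FDR 0.0643), the second with an unadjusted p under 0.05.

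The zinc finger gene pqm-1 (WBGene00004096), whose protein is known as the counterpart of the FOXO factor DAF-16 in insulin signalling, had 26.8, 20.7, 27.2 and 22.8 RPM in fasted libraries and 33.6, 26.5, 25.9 and 27.04 RPM in fed ones. The groups overlapped and it was not called (log2 fold change -0.21, SE 0.154, interval -0.52 to 0.09, edgeR FDR 0.224). Its call depended on the scaling: under TMM the log2 fold change was -1.29 with an edgeR FDR of 5.46e-05, called lower, and DESeq2 gave -1.28. Against the median tested gene pqm-1 stood 1.44 lower on the log2 scale, with 17.4% of tested genes at or below its fold change.

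The DM-domain gene mab-3 (WBGene00003100), a repressor of yolk genes in the male intestine, was at the floor of 3 counts in both groups, with 2, 2, 0 and 0 counts in fasted and 0, 0, 0 and 2 counts in fed libraries. No comparison was possible. In RPM, 3 counts correspond to 0.0886 to 0.119 in fasted and 0.114 to 0.143 in fed libraries.

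The timing gene blmp-1 (WBGene00003847), related to the mammalian repressor Blimp1, went the other way from the GATA genes. It had 0, 3, 0 and 2 counts in fasted libraries, against 54, 37, 28 and 14 counts in fed ones, which is 0.0444 RPM on average in fasted and 1.37 RPM in fed intestines. All fasted libraries were at or under the floor, and the level was at least 13.5-fold lower in fasted intestines (3 counts a library as the floor). It was called lower (edgeR FDR 2.92e-04), also under TMM and in each fit with 1 library left out. These calls are a description only, since blmp-1 passed the filter through the fed libraries. With blmp-1 in the list at its bound or at its fitted value the median of the 8 genes was the same, since it is the lowest either way. BLMP-1 is also a hypodermal factor, and the 7 hypodermis markers summed to 350, 62.9, 17.8 and 11.1 RPM in fasted and to 11.7 to 80.3 RPM in fed libraries. The part of hypodermal RNA in the blmp-1 values was not tested. None of the 3 tested hypodermis markers was called, and dpy-13 was at 0 counts in all 8 libraries. Its E3 ligase partner dre-1, an F-box gene whose product leads BLMP-1 to degradation, was also called lower, at 6.14 ± 2.08 RPM in fasted and 12.97 ± 1.66 RPM in fed intestines (log2 fold change -1.08, SE 0.238, edgeR FDR 1.92e-03).

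The last timing gene, lin-29 (WBGene00003015), drives the switch of the hypodermis to the adult state. It had 28, 10, 0 and 6 counts in fasted libraries and 0 in each of the 4 fed ones, and did not pass the filter. The library with the most counts was fasted library 1, which also had the highest sum of hypodermis markers. The part of hypodermal RNA in the lin-29 counts was not tested. The antisense gene hmg-12 shares 2 exon bases with it.

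The genes lie on several chromosomes. In WBcel235, a later build than the ce10 genome to which reads were aligned, elt-2 (X:10481240-10483441) and elt-4 (X:10475527-10475959) are neighbours on the plus strand of chromosome X, and ceh-60 (X:6522596-6530146, minus strand) is on the same chromosome. The plus strand of chromosome V holds elt-7 (V:4770670-4773086), pha-4 (V:20753052-20760317) and unc-62 (V:4497461-4511449). On chromosome II are pqm-1 (II:11150391-11152595, minus strand), lin-29 (II:11917642-11935343, minus strand) and mab-3 (II:9732137-9738035, plus strand), and blmp-1 is on chromosome I. Apart from the overlaps named for ceh-60 and lin-29, no exon of these genes is shared with another gene in that annotation.

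Ordered by level per exon length, the fasted intestine had elt-7 first at 117 RPKM, followed by pha-4 (27.6), pqm-1 (21.2), unc-62 (5.60), elt-2 (4.35), elt-4 (3.83) and ceh-60 (2.35), and then by lin-29, mab-3 and blmp-1 below 0.2 RPKM. In the fasted order the ranges over libraries were apart between elt-7 and pha-4, between pqm-1 and unc-62 and between ceh-60 and lin-29, and overlapped between all other neighbours. The fed intestine had elt-7 at 57.3 RPKM, pqm-1 at 24.6, pha-4 at 9.06, unc-62 at 4.28, elt-2 at 1.47, elt-4 at 0.662, blmp-1 at 0.557 and ceh-60 at 0.411 RPKM. In the fed order the ranges from elt-7 down to elt-2 were all apart, those from elt-2 to ceh-60 overlapped between neighbours, and ceh-60 was apart from mab-3. The second place changed hands: pha-4 exceeded pqm-1 in 4 of 4 fasted libraries and pqm-1 exceeded pha-4 in 4 of 4 fed ones. All RPKM values rest on the deposited exon lengths. Besides unc-62, these differ from WBcel235 for blmp-1 (2454 against 3438 bases), ceh-60 (1005 against 1331) and elt-4 (496 against 388), among others.

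**Figure D2:**
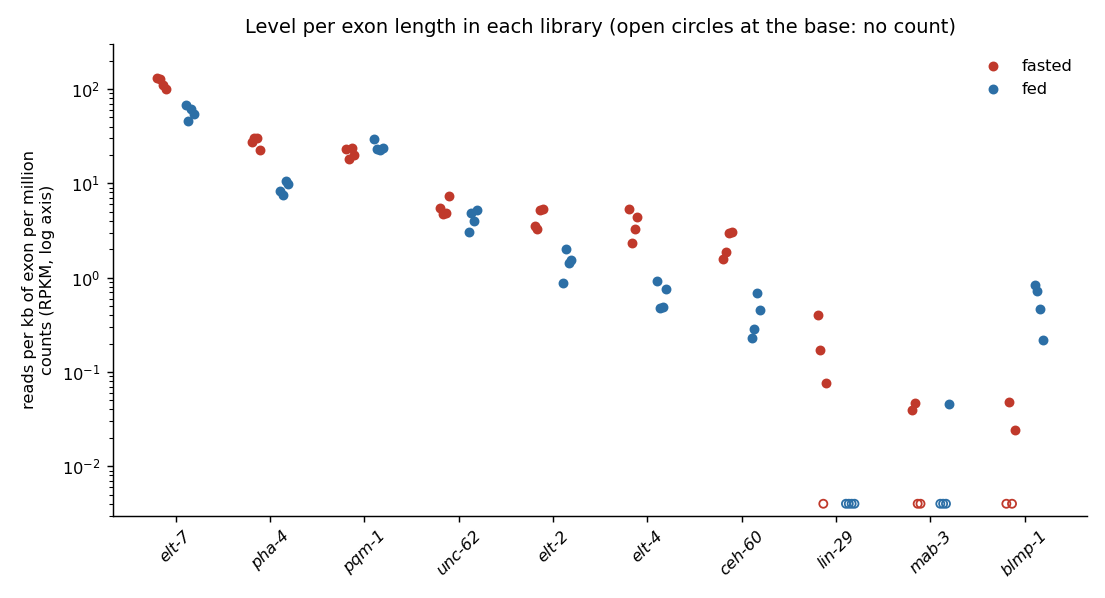
RPKM (RPM per 1000 bases of exon, log axis) of the 10 genes in each fasted (red, left of each pair) and fed (blue, right) library, ordered by the fasted mean. Open circles at the base are libraries with no count. The gene elt-7 leads in both groups, and pha-4 and pqm-1 change places.

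Ratios to elt-2 within each library need no scaling. The log2 ratio of pqm-1 to elt-2 averaged 1.86 ± 0.36 in fasted and 3.66 ± 0.66 in fed libraries (SD, n = 4 each), a difference of -1.80 (exact two-sided permutation test, p = 0.0286, the smallest that 4 against 4 can give, adjusted 0.0571 over 8 ratios). That of unc-62 to elt-2 averaged 1.26 ± 0.33 in fasted and 2.45 ± 0.24 in fed libraries, a difference of -1.19 (exact two-sided permutation test, p = 0.0286, adjusted 0.0571). For blmp-1, with fasted counts at the floor, the size of the ratio is set by the 0.5 added to each count, and no test of it is given. The remaining ratios to elt-2 overlapped between groups. The difference was 0.93 for ceh-60 and 0.85 for elt-4, given without a test since both passed the filter through the fasted libraries. It was -0.55 for elt-7 (exact permutation p = 0.2286, adjusted 0.2612) and 0.02 for pha-4 (exact permutation p = 0.9429). None of the 8 ratios computed passed 0.05 after adjustment, and 4 were under 0.05 before it. Of these, the ratios of pqm-1 and unc-62 to elt-2 rest on genes above the filter in both groups. Those with blmp-1 or ceh-60 do not, and the adjusted values depend on them too. With fed library 1 or fed library 3 left out, the adjusted permutation p of the pqm-1 and unc-62 ratios to elt-2 was 0.0457. That value depends on how many of the 8 ratios have a small p, so it adds nothing for pqm-1 or unc-62.

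The vitellogenins, against which these factors were read, split. By total counts vit-1 fell to 876 ± 187 RPM in fasted intestines, against 73093 ± 5324 RPM in fed ones (SD, n = 4 each, log2 fold change -6.38, edgeR FDR 5.31e-09). The gene vit-4 fell to 389 ± 25.4 RPM in fasted intestines, against 26609 ± 740 RPM in fed ones (log2 fold change -6.10), and vit-3 to 2543 ± 591 RPM, against 42295 ± 1921 RPM in fed ones (-4.06). In the other direction vit-2 stood at 318123 ± 6493 RPM in fasted and 193592 ± 1211 RPM in fed intestines and was called higher (log2 fold change 0.72, edgeR FDR 3.93e-06), with 0.46 (not called) without vitellogenins in the library size and a reversed value of -0.36 under TMM. The gene vit-5 stood at 248849 ± 7427 RPM in fasted and 191229 ± 1598 RPM in fed intestines, a log2 fold change of 0.38 (edgeR FDR 3.87e-04) under the fold threshold, and was called lower under TMM at -0.70. The last, vit-6, was at 99096 ± 15349 RPM in fasted and 197605 ± 2300 RPM in fed intestines and was called lower (log2 fold change -0.996). Whatever the scaling, vit-2 exceeded vit-1 by 297, 506, 324 and 383 times in fasted libraries, against 2.75, 2.39, 2.85 and 2.65 times in fed ones. Likewise vit-5 exceeded vit-4 by 625, 638, 626 and 678 times in fasted libraries, against 7.10, 6.94, 7.38 and 7.33 times in fed ones. The near-identical vit-1 and vit-2, and likewise the copies vit-5, vit-4 and vit-3, lose reads that match more than one of them, which makes the levels of single copies uncertain.

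**Figure D3:**
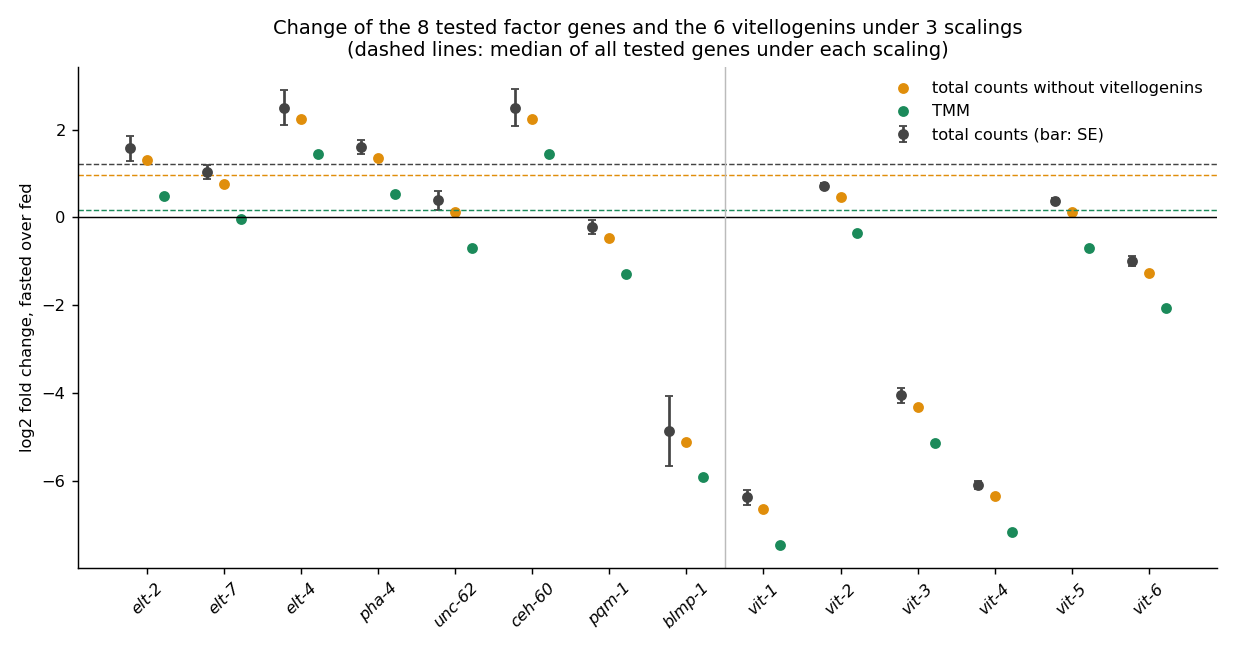
Log2 fold change, fasted over fed, of the 8 tested factor genes (left) and of vit-1 to vit-6 (right) with libraries scaled by total counts (black, bar: SE), by total counts without vitellogenins (orange) and by TMM (green), with the median of all tested genes under each as a dashed line. By total counts elt-2, elt-7, elt-4, pha-4 and ceh-60 lie above 0, and elt-7, unc-62, vit-2 and vit-5 drop below 0 under TMM.

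Per vit-1 count, the 7 factor genes above the floor in both groups lay higher in fasted libraries with no overlap, as did 98.1% of all tested genes, so that this measure says nothing particular to them. For each 1000000 counts of vit-1 there were 7967 elt-2 counts in fasted and 31.2 in fed libraries on average (256-fold), and for pqm-1, the gene with the smallest such ratio, 28262 in fasted and 389 in fed ones (72.7-fold). Those folds are set by the fall of vit-1 in the denominator. Read against vit-2, which took the largest share of fasted counts, the factors separated. Per vit-2 count the fasted group lay wholly above the fed one for 37.7% of all tested genes and wholly below it for 19.3%. For each 1000000 vit-2 counts, pqm-1 had 84.3, 63.5, 85.6 and 73.2 counts in fasted libraries, against 174, 138, 133 and 140 in fed ones, a ratio of means of 0.525 with no overlap. For each 1000000 vit-2 counts, pha-4 had 196, 209, 215 and 166 counts in fasted libraries and 97.0, 89.3, 123 and 115 in fed ones, 1.85-fold higher without overlap. The gene ceh-60 was 3.49-fold and elt-4 3.53-fold higher per vit-2 count in fasted intestines, both without overlap. For these genes that is a description only, since both passed the filter through the fasted libraries. The genes elt-2 (1.81-fold), elt-7 (1.24-fold) and unc-62 (0.799-fold) overlapped between groups on this measure. Against vit-5, elt-2 (2.29-fold) and elt-7 (1.57-fold) no longer overlapped, unc-62 was level (1.01-fold) and pqm-1 was again wholly lower (0.663-fold), where 47.7% of all tested genes lay wholly above and 15% wholly below. Set side by side by total counts, elt-2 and ceh-60, whose products activate yolk genes, were called higher, as was vit-2, the activator gene unc-62 was not called, and vit-1, vit-3, vit-4 and vit-6 were called lower. The ceh-60 values may hold reads of the more abundant antisense gene ets-4 from their shared exon bases. The gene pqm-1, whose product is known to hold yolk genes down when TORC2 signalling is lost, was not called. Under TMM pqm-1 was called lower, as were all vitellogenins other than vit-2, and elt-2, unc-62 and ceh-60 were not called.

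**Figure D4:**
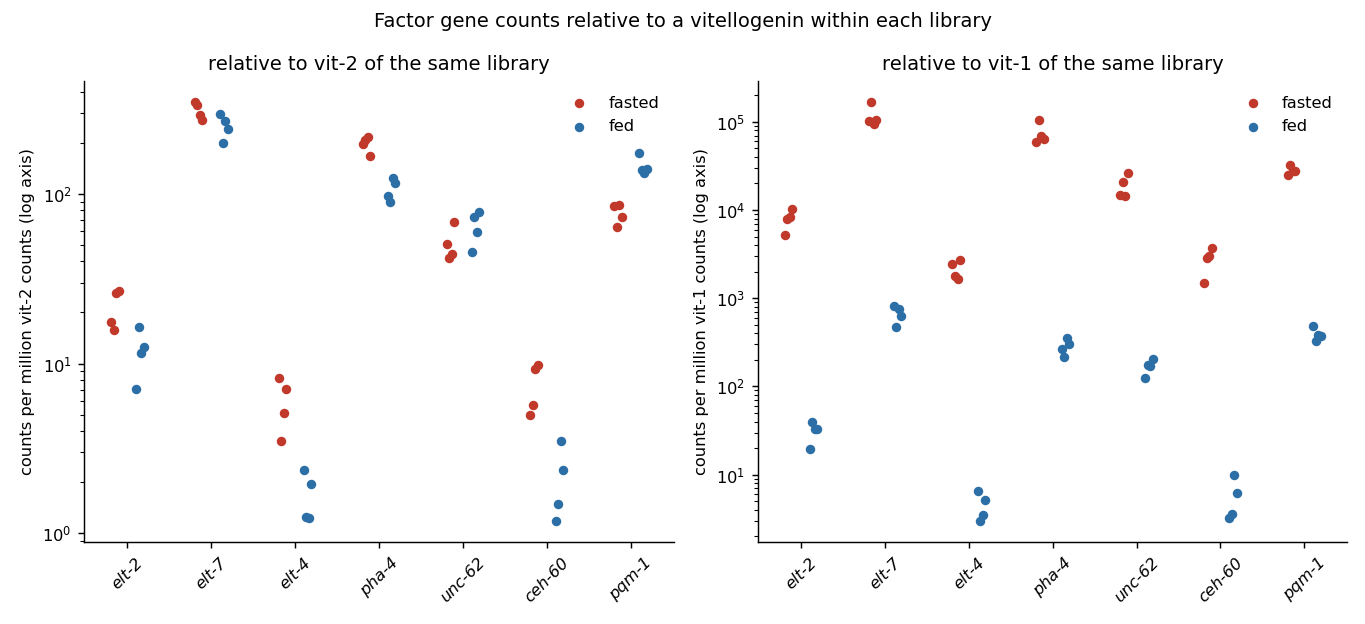
Counts of 7 factor genes per 1000000 counts of vit-2 (left) and of vit-1 (right) of the same library, in fasted (red, left of each pair) and fed (blue, right) libraries, on log axes. Against vit-1 every gene is far higher in fasted libraries. Against vit-2, pqm-1 is lower (0.525-fold), elt-2, elt-7 and unc-62 overlap, and elt-4, pha-4 and ceh-60 are higher. Of these, elt-4 and ceh-60 passed the low-count filter through the fasted libraries.

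Among the fasted libraries, 3 and 4 had the higher values of elt-2 and ceh-60, and also of vit-6 (107517 and 116477 RPM, against 85515 and 86876 RPM in fasted libraries 1 and 2), whereas elt-7 was higher in fasted libraries 1 and 2. The muscle and pharynx markers were instead high in fasted libraries 1 and 4. The germline and oocyte markers (132, 765, 33.7 and 40.03 RPM in fasted libraries 1 to 4) were higher in fasted libraries 1 and 2. So were the hypodermis markers (350, 62.9, 17.8 and 11.1 RPM). The part of RNA from other tissues in this split was not tested.

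Genes that signal to yolk production were taken as a list of 21, of which 16 were tested. By total counts 13 were called higher, 1 lower (dre-1) and 2 were not called, beside 52.9% higher and 9.97% lower over all tested genes, with a median log2 fold change of 1.69 beside 1.23. Under TMM 5 were called higher (sgk-1, daf-2, sma-2, daf-4 and lin-41) and 1 lower, beside 19.6% higher and 21.5% lower over all tested genes, with a median of 0.61 beside 0.16. Of these, daf-4 and lin-41 passed the filter through the fasted libraries, so their calls are a description only. The kinase gene sgk-1, which acts between TORC2 and PQM-1, had 130, 126, 109 and 77.3 RPM in fasted libraries, against 29.4, 29.6, 28.2 and 34.6 RPM in fed ones (log2 fold change 1.86, SE 0.177, edgeR FDR 5.82e-06). The insulin receptor gene daf-2 averaged 101 ± 23.2 RPM in fasted and 9.09 ± 3.17 RPM in fed intestines (SD, n = 4 each, log2 fold change 3.48, edgeR FDR 2.51e-06), and its target daf-16 had a log2 fold change of 1.67 (edgeR FDR 3.24e-05), not called under TMM. The TORC2 subunit gene rict-1 and the TOR kinase gene let-363 were called higher at 1.01 and 0.80 by total counts and had values of -0.06 and -0.27 under TMM. Without fasted libraries 1 and 4, rict-1 (0.83) and akt-1 (1.02) were no longer called. The call of rict-1 was also lost without fed library 1 (0.95) and with vitellogenins left out of the library size (0.76), and that of let-363 in the last of these (0.54).

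The TGF-beta pathway that promotes yolk expression was represented by its Smad genes sma-2, sma-3 and sma-4 and its receptor genes sma-6 and daf-4, all 5 called higher by total counts (as were 52.9% of all tested genes), with log2 fold changes of 1.41 to 2.98. The highest of these was sma-2, at 39.8 ± 4.47 RPM in fasted and 5.05 ± 0.779 RPM in fed intestines (SD, n = 4 each), and it was still called under TMM (1.90), as was daf-4 but none of the other 3. Its ligand gene dbl-1, made mostly by neurons, did not pass the filter. Of the timing genes upstream of lin-29, lin-41 (4.47) and hbl-1 (1.71) were called higher by total counts, hbl-1 not under TMM, and lin-14 (0.68) was not called. The gene lin-41 is also active in oocytes, and its 4.40, 7.39, 2.30 and 5.47 RPM in fasted libraries, against 0 to 0.429 RPM in fed ones, were highest in fasted library 2, which had the most oocyte RNA. The part of that RNA in the result was not tested. Of the fed libraries, only library 2 reached the filter minimum of 0.379 RPM. The call of lin-41 is a description only, since it passed the filter through the fasted libraries. The gene mab-10, a cofactor of LIN-29, was not called either (0.54).

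For the export and uptake of yolk, dsc-4, which encodes the microsomal triglyceride transfer protein that loads lipid on vitellogenin, was at 272, 228, 295 and 283 RPM in fasted libraries, against 652, 537, 706 and 654 RPM in fed ones. It was called lower under both scalings (log2 fold change -1.24, edgeR FDR 8.83e-06, and -2.31 under TMM). The recycling gene rme-1 was called lower as well (-1.43, edgeR FDR 1.51e-05). The yolk receptor gene of the oocyte, rme-2, was called higher (5.68, edgeR FDR 3.60e-03) on counts of 813, 5143, 56 and 135 in fasted and 17, 33, 50 and 10 in fed libraries. It is itself an oocyte marker, its value fell to 3.24 without fasted library 2, and its call was lost when any 1 fed library was left out, at 5.38 to 6.11. It also passed the filter through the fasted libraries, since fed library 4 was just under the minimum. The endocytosis gene rme-8 was called higher (0.59) by total counts, had -0.48 under TMM, and lost its call without any single fasted library other than 4 or any single fed library other than 3.

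Among the genes known as targets of ELT-2 more were called lower than higher, while elt-2 itself was called higher by total counts. All 12 were tested: 3 were called higher, 6 lower and 3 were not called, beside 52.9% higher and 9.97% lower over all tested genes, with a median log2 fold change of -0.64 beside 1.23. By TMM 2 were higher and 8 lower, beside 19.6% and 21.5% over all tested genes, with a median of -1.72 beside 0.16. Lower were the digestive proteases cpr-1 (2301 ± 429 RPM in fasted and 6178 ± 525 RPM in fed intestines, SD, n = 4 each) and asp-1, the acid phosphatase pho-1 (5.08 ± 0.953 RPM in fasted and 33.6 ± 7.09 RPM in fed ones), the sphingosine phosphate lyase spl-1, the microvillar actin act-5 and the peptide transporter pept-1, at log2 fold changes of -2.72 to -0.79. Higher were the metallothionein mtl-1 (334 ± 117 RPM in fasted and 0.544 ± 0.431 RPM in fed ones, log2 fold change 9.25), the ferritin ftn-1 (3.13) and the gut esterase ges-1 (0.95, with -0.11 under TMM). The call of mtl-1 is a description only, since it passed the filter through the fasted libraries. The 8 intestine markers summed above are all among these 12 genes, so the marker sum is no separate measurement of them.

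**Figure D5:**
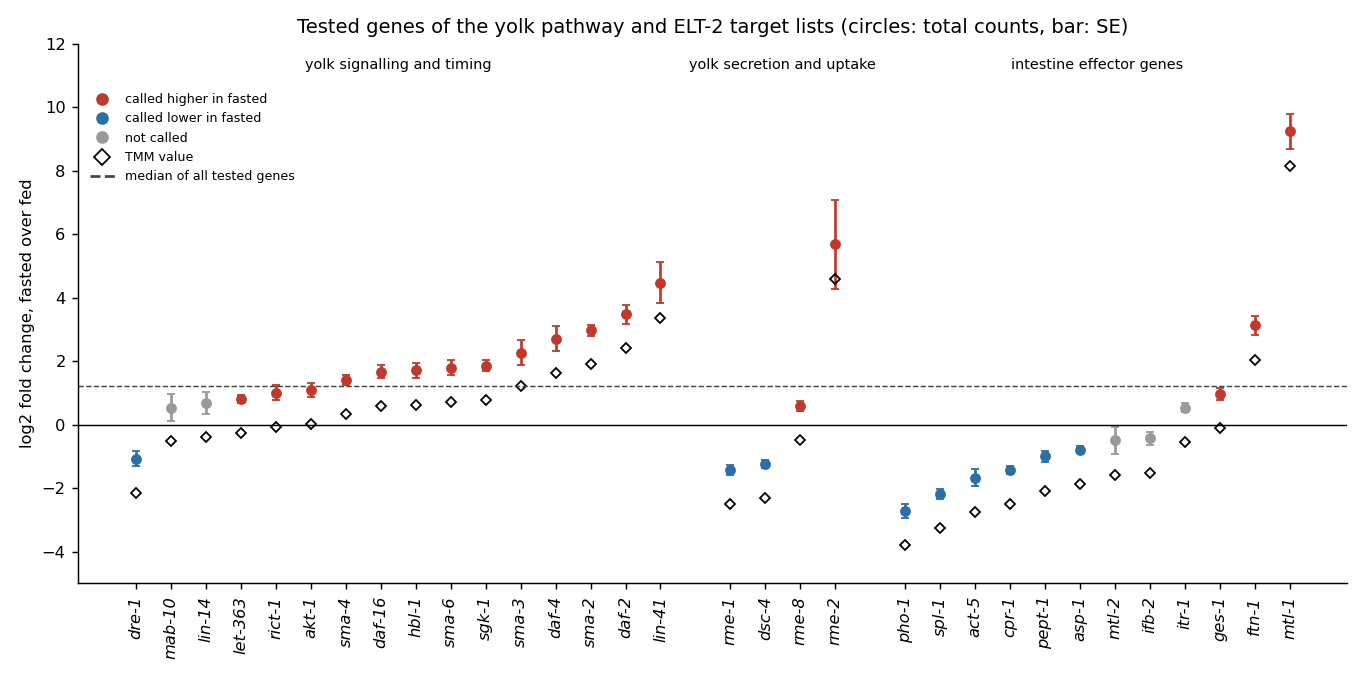
Log2 fold change, fasted over fed, of the tested genes that signal to yolk production (left), of those for yolk secretion and uptake (middle) and of the known ELT-2 targets (right), by total counts (circles, bar: SE) and by TMM (diamonds). Red circles were called higher by total counts, blue ones lower and grey ones not called, and the dashed line is the median of all tested genes (1.23). Most signalling genes lie on or above that line, dsc-4, rme-1 and 8 of 12 ELT-2 targets lie below 0 (6 of the 8 called lower), and rict-1, let-363, lin-14, mab-10, rme-8, ges-1 and itr-1 lie below 0 under TMM alone.

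The genes whose profile came nearest to each factor were found by the Euclidean distance between centred log2(RPM + 0.5) profiles over the 8 libraries, a description of these libraries alone. The added 0.5 RPM flattens genes near or under that level, so genes with near profiles can differ in fold change. Nearest to elt-7 were Y105C5A.15 (0.207) and the helicase gene ddx-15 (0.234), and nearest to elt-4 the ribosomal protein genes rpl-10 (0.215) and rpl-9 (0.264). Nearest to pha-4 were math-44 (0.286) and F53A2.9 (0.323), and nearest to pqm-1 acer-1 (0.288) and pod-2 (0.294), the acetyl-CoA carboxylase gene. The gene unc-62 had tin-44 (0.345) and hrpl-1 (0.359), ceh-60 had the translation initiation factor gene eif-3.L (0.373) and ttm-5 (0.479), elt-2 had trpp-1 (0.535) and C46H11.2 (0.540), and blmp-1, at the floor in fasted libraries, had only distant neighbours, Y37D8A.4 (0.895) and ddo-2 (0.932). By log2 fold change math-44 (3.58) and F53A2.9 (4.00), at 0.0971 and 0.0580 RPM in fed intestines, lay apart from pha-4 (1.60). So did rpl-10 (1.64) and rpl-9 (1.60) from elt-4 (2.51).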

How the data were processed

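Polyadenylated RNA of dissected intestines was amplified and sequenced in 4 fasted and 4 fed libraries. The deposited values are raw counts for each gene. The authors trimmed reads with Trimmomatic, aligned them to ce10 with the spliced aligner of QuasR, kept unique reads, and counted those in the orientation of WormBase exons, with a kit that does not mark strand, so some reads were left out. The width column, the exon length in bases (unit: other), was deposited with them. Every value column matched a library by its title (0 did not). Symbols and positions were taken by identifier from the Ensembl annotation of WBcel235 (19182 identifiers matched, 1210 did not).

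Genes were tested with edgeR 4.0.16 (glmQLFit and glmQLFTest, R 4.3.3), with library size the total count as in the study, filterByExpr (minimum count 10, minimum total 15) and Benjamini-Hochberg adjustment (FDR) over 7379 genes. For a call, a gene had to reach an FDR below 0.01 and a fold change above 1.5. A difference's interval is 1.96 SE to each side. A group was at the floor at 3 counts or fewer in each library. Alternatives were TMM, DESeq2 1.42.0, library sizes without vitellogenins, other filters, a replicate block, libraries left out, and an FDR of 0.05 with no fold threshold. Ratios within libraries (0.5 added to each count) were compared by exact permutation over 70 relabellings. The scripts were tested on simulated data. Replicates are labelled as independent biological replicates, and no 2 libraries agreed within sampling noise. Floors cover counting error alone, since PCR duplicates cannot be recognised, and intervals come from the fit and include the spread between libraries. Named genes were the 10 factors, the vitellogenins, the genes of the lists, and the 2 nearest profiles of each tested factor. The members and lists were chosen with earlier results of these data known.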

Additional observations from a re-analysis of the deposited data

Results flagged for a closer look

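Groups of 4 libraries were screened for a single library far from the other 3, and 1 of 28 groups was picked out (chance picks about 1 in 20). It was pqm-1 in fed intestines, where library 1 had 33.6 RPM and the other 3 had 25.9 to 27.04 RPM, a gap of 0.857 of the whole range. Without fed library 1 the log2 fold change of pqm-1 was smaller in size and it was still not called.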

How the results depend on the processing

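The calls of 5 factor genes higher and 1 lower by total counts were also counted with library sizes without vitellogenins, with no low-count filter, with a mean of at least 10 counts, at an FDR of 0.05 with no fold threshold, without fasted libraries 1 and 4, with each library left out, and with the replicate number as a block (replicate block: 5 higher, 1 lower). The scaling changed them: TMM gave 0 higher and 2 lower, DESeq2 1 higher and 3 lower, and the replicate block with TMM 1 higher and 2 lower. Over all genes the calls were 3901 higher and 736 lower by total counts, 1448 and 1585 by TMM, 1828 and 1736 by DESeq2, and 1316 and 1502 with the block and TMM, so that 84.1%, 47.7%, 51.3% and 46.7% of calls were higher. Of the list genes, 18 were called higher by total counts, 7 by TMM, 9 by DESeq2 and 6 with the block and TMM.

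Called values, and vit-5, that turned sign under TMM, DESeq2 and the block with TMM were -0.0401, -0.0374 and -0.0403 for elt-7, -0.3595, -0.3567 and -0.3595 for vit-2, -0.6961, -0.6934 and -0.6963 for vit-5, -0.0598, -0.0556 and -0.0258 for rict-1, -0.2723, -0.2698 and -0.2708 for let-363, -0.4795, -0.4772 and -0.4785 for rme-8, and -0.1122, -0.1091 and -0.1223 for ges-1. Of genes not called by total counts, unc-62 had -0.6980, -0.6964 and -0.6795 (called lower by DESeq2), and lin-14, mab-10 and itr-1 also turned below 0 under all 3. With 1 library left out, ceh-20 and mtl-2, neither called, turned sign. TMM scales the fasted libraries down (TMM factors of 1.356 to 1.489 in fasted and 0.638 to 0.7328 in fed libraries). The count of ratios passing 0.05 ranged from 0 to 5 with 1 library left out, a count that takes in ratios of genes that passed the filter through 1 group. Same-numbered libraries deviated together with correlations of 0.0414, 0.0873, 0.0684 and 0.155. Fasted libraries 3 and 4 correlated best with their own number, and fasted libraries 1 and 2 with other numbers. Correlations this weak cannot show whether the samples were paired, and the main fit used no pairing. The block moved all calls to 3576 higher and 693 lower, and of the named genes it lost the calls of rme-2 (4.16) and rme-8 (0.60) and no other. Depth limits mab-3 and lin-29, and the fed values of elt-4 and ceh-60 rest on 5 to 17 counts.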
